A study of Homo sapiens with 4 samples.

Results

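The untreated state of the human lung adenocarcinoma line A549 was described from the 2 control libraries of a series of 4 RNA-seq libraries. Genes were counted as expressed where both control libraries reached 1 FPKM, and 11021 of the 57905 genes in the files did so (19%). FPKM is the number of sequenced fragments per length of gene, scaled to the size of the library, so levels of different genes are compared per unit of length. Lineage, oncogene and tumour suppressor genes were called absent where both libraries stayed under 0.1 FPKM. Both values of a gene are given as control replicate 1 and then control replicate 2, and means are ± SD with n = 2.

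The control cells were marked as control by their treatment tag and title, which also gives the 24 h time point. A single treatment protocol, which describes GMI, is attached to control and GMI samples alike, so the tag and title alone set the group. They were grown in DMEM with fetal bovine serum, and total RNA was taken with Trizol. The labels do not say whether a vehicle was added, nor whether the libraries came from separate cultures, so the spread between them may be technical. The model is a single tumour line in culture, without the stroma, vessels and immune cells of a lung.

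A549 is widely used as a stand-in for the alveolar type 2 cell, the surfactant-making cell of the lung alveolus. The line is known to carry inactivating mutations of STK11, KEAP1 and SMARCA4, and a deletion that takes in CDKN2A. KEAP1 is the adaptor that marks the transcription factor NRF2 for destruction, and NRF2 drives genes of glutathione, thioredoxin, NADPH and iron metabolism. FPKM of a gene shows how much RNA was sequenced and says nothing of whether that RNA carries a mutation.

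Control replicate 1 had 11301 genes of at least 1 FPKM and control replicate 2 had 11472. The denominators behind the FPKM values were recovered as 20560000 and 24090000 fragments, so that 1 FPKM in a gene of 2 kb stood for about 41.1 and 48.2 fragments. A single fragment in such a gene gave 0.0243 and 0.0208 FPKM, and 3 fragments, the limit that a count of 0 allows for counting error alone, gave 0.073 and 0.0623 FPKM. Values are deposited with 2 decimals, so 0 can also stand for 1 fragment in genes longer than about 9.73 and 8.3 kb. In still longer genes it can stand for several fragments. All 23 housekeeping genes of a reference list were expressed and none was listed at 0. In bulk RNA, fewer cells expressing a gene and less RNA per cell cannot be told apart.

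Most expressed genes were low. Between 1 and 10 FPKM lay 7205 genes, 65.4% of those expressed, and they held 8.62% and 9.03% of the summed FPKM. The class from 10 to 100 FPKM had 3393 genes, and that from 100 to 1000 FPKM had 385 genes. Only 38 genes averaged 1000 FPKM or more, and these 38 held 32.8% and 32.5% of the summed FPKM. The median expressed gene had 5.88 FPKM, with quartiles at 2.67 and 15.1 FPKM. Of 19263 protein-coding genes, 9802 were expressed (50.9%) and 6118 were under 0.1 FPKM in both libraries (31.8%), which are the shares against which the lists below can be read. Those lists were chosen with earlier results of these data known, so their shares are descriptions only. Non-coding and pseudogene loci were the smaller share of expressed genes, with 241 antisense genes, 190 lincRNA genes and 248 processed pseudogenes.

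**Figure D1:**
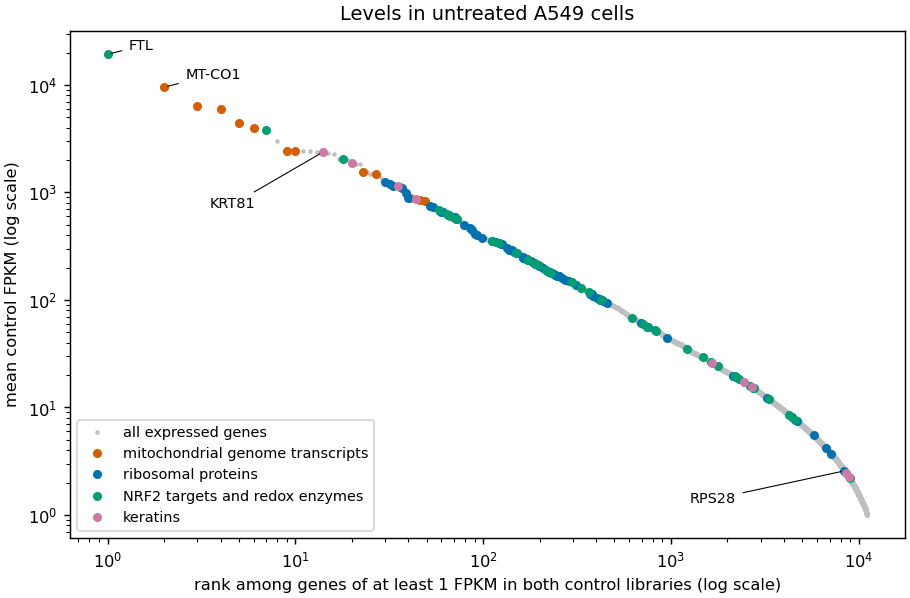
Mean control FPKM (log scale) against rank (log scale) for the 11021 expressed genes, with each gene a point and 4 gene groups coloured. FTL stands alone at 19257.3 FPKM, mitochondrial transcripts fill most of the next ranks, and ribosomal protein genes run from above 1000 FPKM down to RPS28 at 2.58 FPKM.

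FTL, the ferritin light chain that stores iron with the heavy chain, led the ranking at 19910.1 and 18604.5 FPKM, and alone held 5.97% and 5.68% of the summed FPKM. FTH1, the ferritin heavy chain, had 3819 and 3780.1 FPKM, and 62.4% of its exon bases overlap another gene. Transcripts of the mitochondrial genome, all 15 of a list expressed, took ranks 2 to 6. MT-CO1, a catalytic subunit of cytochrome c oxidase, had 9426 and 9614 FPKM, and MT-CO2, another of its subunits, had 6526 and 6333 FPKM. The ribosomal RNA MT-RNR2 had 5855 and 6145 FPKM, MT-CO3 had 4419.8 and 4460.4 FPKM, and the complex I subunit MT-ND4 had 3963 and 4004 FPKM. Genes of the mitochondrial genome together held 13.3% and 13.7% of the summed FPKM, and 4.5% and 4.58% of the fragments, which are not scaled to length.

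Below them stood genes of the cytoskeleton, of which all 28 on a list were expressed, and of calcium signalling. The cytoplasmic actins ACTB and ACTG1 had 3049 and 2979 FPKM and 2418 and 2419 FPKM. The actin-monomer binding thymosins TMSB4X and TMSB10 averaged 2402.5 ± 104.7 and 1984.7 ± 51.8 FPKM. S100A6, S100A4 and S100A11, small calcium-binding proteins, averaged 2370.7 ± 198.7, 2055.5 ± 131.8 and 1494.5 ± 52.4 FPKM. Metabolic genes among the top 30 were GAPDH of glycolysis at 2359 and 2264 FPKM, the aldose reductase AKR1B1 at 2133 and 1927 FPKM, and the retinal dehydrogenase ALDH1A1 at 1848 and 1842 FPKM. IGFBP4, a secreted protein that binds insulin-like growth factors, had 1348 and 1332 FPKM. Of the 29 pairs of neighbours among the top 30, 15 had ranges that overlapped, so their order was within the spread of the libraries.

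The top 10 genes held 18.6% of the summed FPKM in both libraries, the top 100 held 44.3% and 43.7%, and the top 1000 held 73.6% and 72.8%. Ribosomal protein genes made up 21 of the top 100, the mitochondrial genome 15, processed pseudogenes 7, keratins 4, S100 genes 4 and annexins 2. The gene at rank 100 averaged 372.5 FPKM and the gene at rank 1000 averaged 42.7 FPKM.

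At the other end, membership turned on the second decimal. SAMD4A with 1.01 and 1.00 FPKM, FOXN3 with 1.03 and 1.00 FPKM and NMRK1 with 1.13 and 1.00 FPKM lay just inside the threshold. NEBL with 1.07 and 0.99 FPKM, KIF11 with 0.99 and 1.03 FPKM and KIAA1644 with 0.99 and 1.38 FPKM lay just outside. In all, 33 genes had 1.00 FPKM as their lower value and 29 had 0.99, and 731 genes reached 1 FPKM in a single library.

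Promoter sequence differed between the level classes. RefSeq start sites on GRCh38.p14, matched by symbol, gave 18720 genes a window of 250 bases before and 50 after the start, and the CpG ratio is the number of CG pairs over the number that the window's base composition gives. A ratio of at least 0.6 was held by 23.3% of 4752 windows of genes listed at 0 in both libraries and 55% of 5566 windows of genes above 0 that were not expressed. It was held by 85.3% at 1 to 10 FPKM, 88.5% at 10 to 100 FPKM, 86% at 100 to 1000 FPKM and 75% of the 16 windows at 1000 FPKM or more. The word TATAAA, read on the gene's strand within 50 bases before the start, ran the other way at the low end: it was in 6.42% of windows of genes listed at 0, 0.994% at 1 to 10 FPKM, 2.03% at 10 to 100 FPKM, 4.98% at 100 to 1000 FPKM and 3 of the 16 windows (18.8%) at 1000 FPKM or more. Over all 18720 windows it was in 3.35%.

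**Figure D2:**
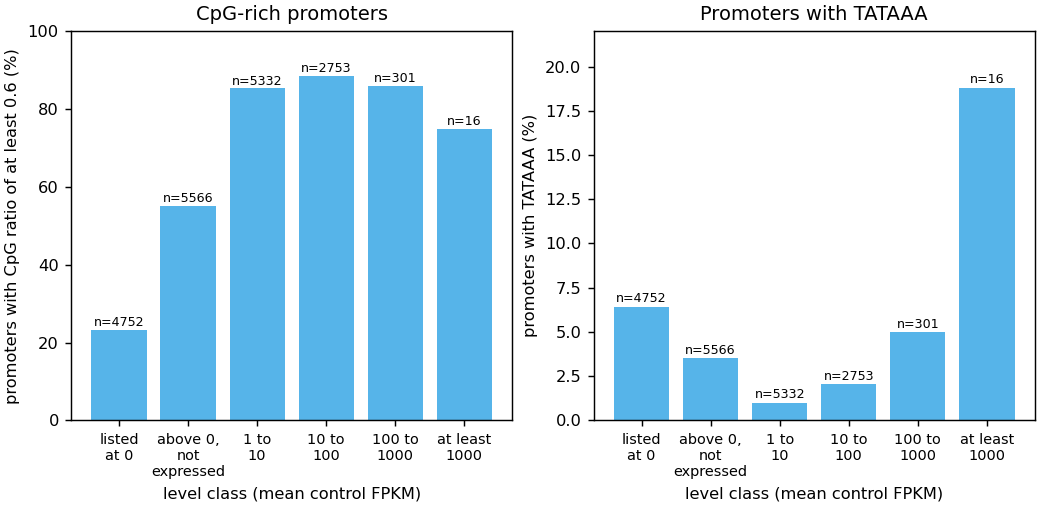
Share of promoter windows (%) with a CpG ratio of at least 0.6 (left) and with TATAAA within 50 bases before the start (right), by level class in control cells, with the number of windows over each bar. The CpG share is 23.3% for genes listed at 0 and between 75% and 88.5% in the expressed classes, and the TATAAA share is lowest, at 0.994%, for genes of 1 to 10 FPKM.

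The 3 genes of at least 1000 FPKM with that word were S100A4, IGFBP4 and ANXA1, an annexin that binds phospholipid in the presence of calcium and had 1256 and 1238 FPKM. Their last 60 bases before the start are shown because they carry the only TATAAA words among the most abundant transcripts with a window, with the word in capitals, 5′ to 3′ on the gene's strand. A match is a description of the letters. The windows are chr1:153545807-153545866 (minus strand) for S100A4, chr17:40443390-40443449 (plus strand) for IGFBP4 and chr9:73151805-73151864 (plus strand) for ANXA1.
S100A4: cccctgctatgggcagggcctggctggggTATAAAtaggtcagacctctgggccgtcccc
IGFBP4: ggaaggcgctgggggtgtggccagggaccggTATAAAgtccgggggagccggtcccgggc
ANXA1: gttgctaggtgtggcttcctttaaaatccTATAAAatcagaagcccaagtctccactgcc
The word begins 31, 29 and 31 bases before the start in S100A4, IGFBP4 and ANXA1. The CpG ratios of the whole windows were 0.29, 0.75 and 0.00, so IGFBP4 alone of these was also CpG-rich.

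The translation machinery was expressed throughout, and all 79 ribosomal protein genes passed 1 FPKM, with a median of 219.9 FPKM against 1.17 FPKM over all protein-coding genes. RPL13A, of the large subunit, had 1315 and 1193 FPKM, and RPS2, of the small subunit, had 1264 and 1149 FPKM. The lowest, RPS28, had 2.66 and 2.49 FPKM, and RPL36A, RPL21 and RPL39 averaged 4.21 ± 0.0849, 5.51 ± 1.9 and 12.3 ± 0.262 FPKM. These low members were picked out after their values were seen. Among translation factors 19 of 20 were expressed, led by EEF1A1, which brings aminoacyl-tRNA to the ribosome, at 1597 and 1484 FPKM. The exception was EEF1G at 0.70 and 0.64 FPKM, and 99.9% of its exon bases overlap another gene. Without a stated strand setting, fragments of overlapping genes cannot be told apart.

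Several genes of this and other lists have copies elsewhere that share their sequence, and some copies were listed at higher FPKM than the gene itself. Which locus the fragments came from was not tested. RPL39P3, a processed pseudogene on chromosome 6, had 2362 and 2219 FPKM against the 12.2 and 12.5 FPKM of RPL39 on chromosome X. In GENCODE 29 the 156 bases of RPL39P3 matched bases 68 to 223 of an RPL39 transcript with 0 mismatches, and the shared sequence is shown, all in lower case, because a fragment inside it fits both genes.
RPL39P3: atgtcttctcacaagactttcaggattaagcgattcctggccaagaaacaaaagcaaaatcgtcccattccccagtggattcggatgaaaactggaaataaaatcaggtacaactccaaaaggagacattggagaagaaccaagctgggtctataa
In fragments the pseudogene held about 7575 and 8339, against 535 and 646 for RPL39. PPIAP22, a copy of the proline isomerase gene PPIA with 496 of 498 bases alike (99.6%), had 1025 and 1012 FPKM, against 190 and 178 FPKM for PPIA. RPL41P1 matched RPL41 at 81 of 81 bases and had 773 and 706 FPKM, against 232 and 208 FPKM for RPL41. RPL13AP5 matched RPL13A at 609 of 612 bases and averaged 1499.2 ± 66.6 FPKM, against 1253.8 ± 86.5 FPKM for RPL13A. In fragments, which are not scaled to length, PPIA, RPL41 and RPL13A stood above these copies. PPIA held about 17310 and 18998 against 10491 and 12142, and RPL41 held 5187 and 5452 against 1287 and 1377. RPL13A held 64046 and 68060 against 19457 and 21409. The exon bases of PPIA number 4432 against 498 in PPIAP22, and those of RPL41 number 1088 against 81. Levels of these genes and their copies are therefore uncertain one by one.

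The control libraries differed by a median of 0.091 in absolute log2 ratio over the expressed genes, without a pseudocount, and 35 genes (0.318%) differed by 2-fold or more. Of those, 34 averaged under 10 FPKM. From 1 to 10 FPKM the median absolute log2 ratio was 0.115, against 0.069 from counting alone; at 100 to 1000 FPKM it was 0.064, against 0.013. Ribosomal protein genes stood on one side, with 75 of 79 higher in control replicate 1 and a median log2 ratio of 0.106, while over all expressed genes 4592 were higher in control replicate 1 and 6343 in control replicate 2. Among the 3816 genes of at least 10 FPKM the widest gaps were in short or repeated loci, such as the let-7 microRNA gene MIRLET7I at 13.7 and 6.84 FPKM, GGT8P at 7.95 and 13.7 FPKM and PFN1P1, a pseudogene of profilin, at 15.1 and 9.81 FPKM. MRPS36, a protein-coding gene, was among the 10 widest at 16.0 and 12.1 FPKM.

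**Figure D3:**
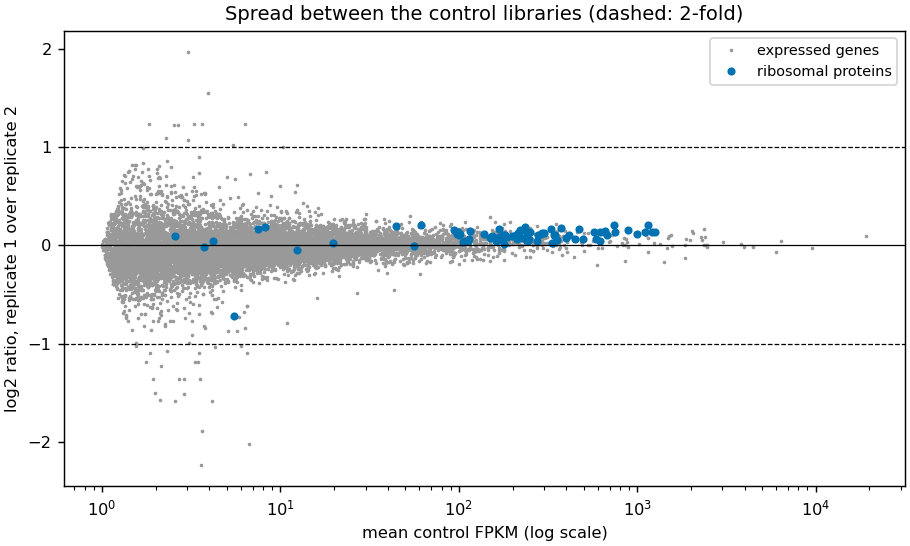
Log2 ratio of control replicate 1 over control replicate 2 against mean control FPKM (log scale) for the 11021 expressed genes, with ribosomal protein genes in blue and dashed lines at 2-fold. The cloud narrows with level, 35 genes lie on or beyond the dashed lines, and 75 of 79 ribosomal protein genes lie above 0.

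NRF2 targets and redox enzymes were expressed in 40 of 45 cases, a share of 88.9% beside 50.9% of protein-coding genes, with a median of 56.3 FPKM. The list was chosen with earlier results of these data known, so this share only describes its members. Whether NRF2 set their levels was not tested. Together they held 9.51% of the summed FPKM of control replicate 1, much of it FTL. AKR1B10, an aldo-keto reductase that reduces retinal, had 639 and 618 FPKM. TXN, the small thiol protein thioredoxin, had 699.7 and 683 FPKM, and PRDX1, a peroxiredoxin that removes peroxide, had 611 and 592 FPKM. These are among the 6 highest of the list together with FTL, FTH1 and AKR1B1. Of the next genes, named after their values were seen, NQO1, a quinone reductase, had 342 and 336 FPKM, and TXNRD1, thioredoxin reductase, had 176 and 183 FPKM. GCLM, the modifier subunit of the enzyme that starts glutathione synthesis, had 14.7 and 15.7 FPKM, and SLC7A11, the cystine carrier, had 28.1 and 30.3 FPKM. The regulators of the list were expressed too, with NFE2L2, the gene of NRF2, at 15.3 and 16.3 FPKM and KEAP1 at 24.95 and 23.35 FPKM.

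The members that were not expressed were few. CES1, a carboxylesterase, was listed at 0 in both libraries, and UGT1A6, a glucuronosyltransferase whose exons overlap others at 64.4% of their bases, had 0.00 and 0.02 FPKM. AKR1C4 had 0.15 and 0.04 FPKM and the amino acid carrier SLC7A2 had 0.54 and 0.51 FPKM. CYP4F11, a fatty acid hydroxylase, straddled the threshold with 0.95 and 1.06 FPKM. AKR1C1, AKR1C2 and AKR1C3, whose sequences are close to each other, averaged 60.1 ± 5.46, 234.3 ± 5.19 and 354.5 ± 18.1 FPKM, and fragments of such paralogs may be assigned to one another.

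A word bound by NRF2 with its small MAF partners, TGACNNNGC, was looked for on both strands of the 300-base windows. It was in 8 of 32 windows of this list (25%), in 15.8% of 8402 windows of expressed genes and in 14.4% of all windows. All of the 8 with the word before the start are shown, which leaves out PIR, and these genes were named for the word after their values were seen. Each has the 30 bases on either side where the window before the start allows, and the sequences set the word beside the levels of these genes. They are chr1:10398833-10398901 (plus strand) for PGD, chr12:104215650-104215718 (plus strand) for TXNRD1, chr21:36069835-36069903 (plus strand) for CBR1, chr14:64942829-64942897 (minus strand) for GPX2, chr6:83431150-83431218 (minus strand) for ME1, chr1:93909431-93909494 (minus strand) for GCLM and chr19:15934985-15935053 (minus strand) for CYP4F11, each written on the gene's strand with the word in capitals.
PGD: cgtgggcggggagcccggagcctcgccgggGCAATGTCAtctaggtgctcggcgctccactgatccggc
TXNRD1: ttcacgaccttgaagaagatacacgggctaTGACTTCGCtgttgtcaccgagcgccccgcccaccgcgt
CBR1: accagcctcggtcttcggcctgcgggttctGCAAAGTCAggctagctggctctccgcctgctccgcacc
GPX2: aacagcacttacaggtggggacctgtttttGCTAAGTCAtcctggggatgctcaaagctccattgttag
ME1: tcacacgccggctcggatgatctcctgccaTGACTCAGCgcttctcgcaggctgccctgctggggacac
GCLM: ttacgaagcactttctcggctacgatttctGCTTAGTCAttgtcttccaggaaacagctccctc
CYP4F11: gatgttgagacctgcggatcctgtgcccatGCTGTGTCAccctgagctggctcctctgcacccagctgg
In TXNRD1 and ME1 the word reads on the gene's strand, and in PGD, CBR1, GPX2, GCLM and CYP4F11 on the opposite strand. PGD, the decarboxylating dehydrogenase of the pentose phosphate pathway, had 276 and 272 FPKM. GPX2, a glutathione peroxidase of epithelia, had 20.2 and 18.3 FPKM, CBR1, a carbonyl reductase, had 35.7 and 33.97 FPKM, and ME1, the cytosolic malic enzyme, had 19.03 FPKM in both libraries. Windows with the word thus ranged from PGD at 273.8 FPKM to CYP4F11 at 1.0 FPKM.

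Central carbon metabolism was expressed almost throughout. All 10 genes of the pentose phosphate pathway and NADPH supply passed the threshold, with TALDO1 at 216 and 217 FPKM and TKT, which moves carbon units between its sugars as TALDO1 does, at 214 and 211 FPKM. In glycolysis 20 of 21 genes were expressed. ENO1, PKM and LDHA, which carry out late steps from phosphoglycerate to lactate, averaged 878.9 ± 14.2, 849.6 ± 0.587 and 546.5 ± 0.7 FPKM. HK2, an inducible hexokinase, was the exception with 0.91 and 0.88 FPKM.

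Of 36 genes of aldehyde and drug metabolism 19 were expressed and 12 were under 0.1 FPKM. Besides ALDH1A1, the highest were GSTP1, a glutathione transferase, at 349 and 335 FPKM, ALDH3A1, an aldehyde dehydrogenase, at 194 and 188 FPKM, and CYP1B1, a cytochrome P450 that hydroxylates estrogens and polycyclic hydrocarbons, at 141 and 158 FPKM. CYP1A2, CYP2B6, CYP2C8, CYP3A4 and NAT2, enzymes best known from the liver, were listed at 0 in both libraries. The drug efflux pump gene ABCB1 had 0.00 and 0.02 FPKM. Its relative ABCC2, named after its values were seen, had 113 and 125 FPKM.

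Most markers of the alveolar type 2 cell were not expressed. Of 15 genes of the alveolar type 2 cell, 5 were expressed and 8 were absent. SFTPB and PGC were listed at 0, SFTPC, the surfactant protein that defines this cell, had 0.02 and 0.04 FPKM, and SFTPA1 had 0.00 and 0.07 FPKM. NKX2-1, the transcription factor of the lung and thyroid lineage, had 0.05 and 0.00 FPKM, and SLC34A2, a phosphate carrier of this cell, had 0.01 and 0.00 FPKM. SFTPD at 0.33 and 0.72 FPKM and the protease NAPSA at 0.45 and 0.61 FPKM lay between the thresholds. The members that were expressed act in lipid handling, growth factor response and protease control: LPCAT1, an enzyme of phosphatidylcholine remodelling, at 38.0 and 40.4 FPKM, SLPI, a secreted protease inhibitor, at 17.8 and 15.6 FPKM, and ABCA3, the lipid carrier of the lamellar body, at 6.95 and 7.72 FPKM. ETV5 averaged 5.47 ± 0.12 FPKM and CTSH averaged 2.59 ± 0.106 FPKM. The defining markers of the type 2 cell, SFTPC, SFTPB and NKX2-1, were thus absent by the rule used here.

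The other lung lineages also had few expressed markers. Of 11 alveolar type 1 markers, 3 were expressed: CAV1 and CAV2, the caveolins, at 325 and 339.9 FPKM and at 45.3 and 45.4 FPKM, and GPRC5A, an orphan receptor, at 28.4 and 30.5 FPKM. PDPN, AQP5, CLIC5 and HOPX were listed at 0. No club cell marker of 8 was expressed, and SCGB1A1, the secretoglobin that defines the club cell, was listed at 0. Goblet and mucous cell markers gave 2 of 11, AGR2, a disulfide isomerase of secretory cells, at 22.8 and 24.95 FPKM and TFF1, a trefoil peptide, at 3.71 and 4.22 FPKM, while the mucin gene MUC5AC had 0.07 and 0.01 FPKM.

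Ciliated cell markers gave 3 of 14, all under 3 FPKM, and FOXJ1, the master factor of motile cilia, had 0.02 and 0.00 FPKM. Basal and squamous markers gave 2 of 12, TRIM29 at 2.85 and 3.05 FPKM and the keratin gene KRT6A at 2.14 and 2.34 FPKM, with TP63, the basal cell factor, at 0.23 and 0.25 FPKM and KRT5 at 0.14 and 0.09 FPKM. Neuroendocrine markers gave 3 of 15. UCHL1, a ubiquitin hydrolase, was the high one at 286 and 271 FPKM, DLL3, a Notch ligand, had 3.47 and 2.82 FPKM, and SYT1 averaged 1.35 ± 0.0354 FPKM. NEUROD1 and INSM1, factors of neuroendocrine cells, were listed at 0. None of 8 tuft cell and ionocyte markers was expressed, and CFTR, the chloride channel, had 0.01 FPKM in both libraries.

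**Figure D4:**
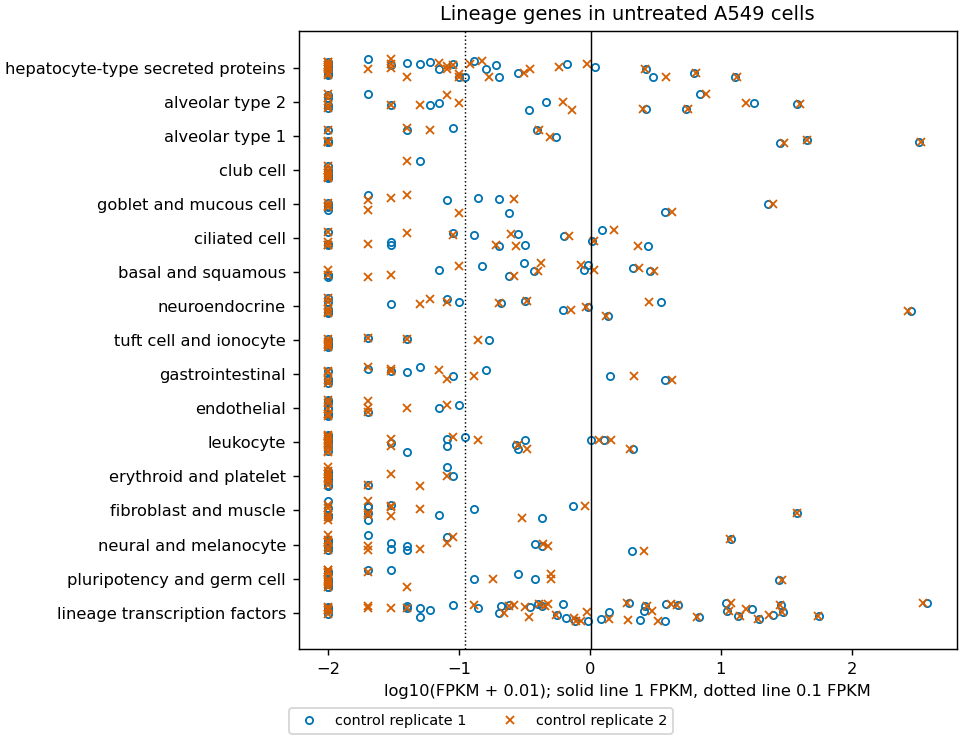
log10(FPKM + 0.01) of every gene in 17 lineage lists, 1 list a row, with circles for control replicate 1 and crosses for control replicate 2; vertical jitter has no meaning. Points at the left edge are listed at 0, and the few genes right of 1 FPKM in the marker lists include UCHL1, CAV1 and LPCAT1, while ID1 leads the transcription factors.

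Markers of cells outside the lung epithelium were mostly absent. None of 11 endothelial and none of 12 erythroid and platelet markers was expressed, and all of both lists were under 0.1 FPKM. Leukocyte markers gave 3 of 19, CD14 averaging 2.05 ± 0.0778 FPKM, LCP1 at 1.26 and 1.44 FPKM and CD68 at 1.00 and 1.16 FPKM, and 85.8% of the exon bases of CD68 overlap another gene. PTPRC, the pan-leukocyte phosphatase CD45, was listed at 0. Fibroblast and muscle markers gave only ACTA2, smooth muscle actin, at 38.4 and 38.2 FPKM, and 30.1% of its exon bases overlap another gene. COL1A1, COL1A2 and DCN had at most 0.91 FPKM in either library. Pluripotency and germ cell markers gave only PRAME, a cancer-testis antigen, at 28.1 and 29.4 FPKM, while NANOG had 0.02 and 0.00 FPKM. Neural and melanocyte markers gave NEFL, a neurofilament subunit, at 12.0 and 11.7 FPKM and MITF at 2.09 and 2.59 FPKM.

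Genes of secreted liver proteins and of gut epithelium were read as further lists, since lung, liver and gut all arise from endoderm. Of 31 liver-type genes, 4 were expressed: complement C3 at 12.8 and 13.3 FPKM, the clotting inhibitor TFPI at 6.22 and 6.45 FPKM, ceruloplasmin (CP) at 3.03 and 3.77 FPKM and complement factor B (CFB) at 2.65 and 2.61 FPKM. Of the exon bases of CFB, 45.5% overlap another gene. ALB, TTR, APOB and SERPINA1 had at most 0.07 FPKM in either library. Gut markers gave 2 of 12, MUC13 at 1.42 and 2.16 FPKM and the shared TFF1, and CDX2, the intestinal factor, had 0.04 and 0.01 FPKM.

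Over all of these cell type lists together, 30 of 223 different genes were expressed (13.5%), against 50.9% of protein-coding genes, 147 were absent (65.9%) and 75 were listed at 0. In both libraries 11 of them reached 10 FPKM. Of the 135 of these genes with a promoter window, 28.9% had a CpG ratio of at least 0.6, against 61% of all windows, and 11.9% held TATAAA, against 3.35%.

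Transcription factors of endoderm were present at low to middle levels. Of 42 lineage factors 19 were expressed and 8 absent. FOXA2 and FOXA1, pioneer factors of endoderm, had 6.86 and 6.55 FPKM and 2.63 and 2.70 FPKM. GATA6, a zinc finger factor of endoderm, had 3.75 and 3.30 FPKM and SOX9, a factor of lung and duct progenitors, had 4.71 and 4.65 FPKM. Higher were ELF3, an epithelial ETS factor, at 25.3 and 23.2 FPKM, PITX1 at 29.8 and 29.2 FPKM, CEBPB, a factor of acute-phase and stress genes, at 56.7 and 55.5 FPKM, and ID1, an inhibitor of basic helix-loop-helix factors, at 375 and 350.4 FPKM. HNF4A had 0.20 and 0.23 FPKM, SOX2 had 0.95 and 0.84 FPKM, and GATA3 straddled the threshold with 1.39 and 0.94 FPKM.

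Some epithelial structure genes were expressed and others were not. Keratins were expressed in 9 of 23 cases (39.1%, against 50.9% of protein-coding genes). KRT8 and KRT18, the keratin pair of simple epithelia, had 1928 and 1841 FPKM and 885 and 846 FPKM, and KRT7, the keratin of glands and ducts, had 1176 and 1118 FPKM. KRT81, a hair keratin, was the highest at 2374 and 2359 FPKM, and its close relative KRT86 averaged 15.4 ± 0.58 FPKM, with fragments of such paralogs not surely told apart. KRT19, another keratin of simple epithelia, had 0.44 and 0.36 FPKM, and KRT17, KRT13 and KRT6B were listed at 0.

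Of 28 epithelial state genes 12 were expressed (42.9%, against 50.9% of protein-coding genes). JUP, a plaque protein of desmosomes and adherens junctions, had 47.0 and 45.7 FPKM, DSP, the desmosome plaque protein, had 14.8 and 16.6 FPKM, and CLDN1, a tight junction protein, had 12.2 and 12.7 FPKM. CDH1, the epithelial cadherin, had 2.16 and 1.96 FPKM and EPCAM, the epithelial adhesion molecule, had 0.29 and 0.31 FPKM. ESRP1, a splicing factor of epithelia, had 0.02 and 0.08 FPKM, and the epithelial factors GRHL2 and OVOL1 were listed at 0. Of 24 mesenchymal state genes 17 were expressed (70.8%). VIM, the intermediate filament of mesenchyme, had 529 and 528 FPKM, TGFBI, a matrix protein, had 494 and 515 FPKM, and the integrin gene ITGB1 had 240.3 and 261 FPKM. CDH2, the neural cadherin, and SNAI2, a repressor of CDH1, named after their values were seen, averaged 26.4 ± 1.01 and 10.7 ± 0.863 FPKM. PRRX1 was listed at 0, SPARC had 0.13 and 0.00 FPKM and MMP2 had 0.84 and 0.76 FPKM.

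Of 39 receptor tyrosine kinases 15 were expressed (38.5%, against 50.9% of protein-coding genes), 18 were absent and 6 lay between the thresholds. EPHA2, a receptor for ephrin A ligands, was the highest at 107 and 111 FPKM. AXL, the receptor of GAS6, followed at 44.0 and 47.0 FPKM, and MET, the receptor of hepatocyte growth factor, at 36.8 and 40.4 FPKM, and the ranges of these 3 did not overlap. EGFR had 17.7 and 19.5 FPKM, ERBB2 had 9.16 and 9.03 FPKM, ERBB3 had 0.16 and 0.17 FPKM and ERBB4 was listed at 0. IGF1R averaged 12.5 ± 0.742 FPKM and FGFR1 averaged 10.8 ± 0.191 FPKM. ALK at 0.03 and 0.04 FPKM and RET and NTRK2 at 0.01 FPKM in both libraries were absent, ROS1 had 0.54 and 0.79 FPKM, and NTRK3 was expressed at 1.47 and 1.45 FPKM. These are kinases that fusions activate in other lung adenocarcinomas. KIT, FLT3 and PDGFRA, kinases of blood and stromal cells, had at most 0.01 FPKM in either library.

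**Figure D5:**
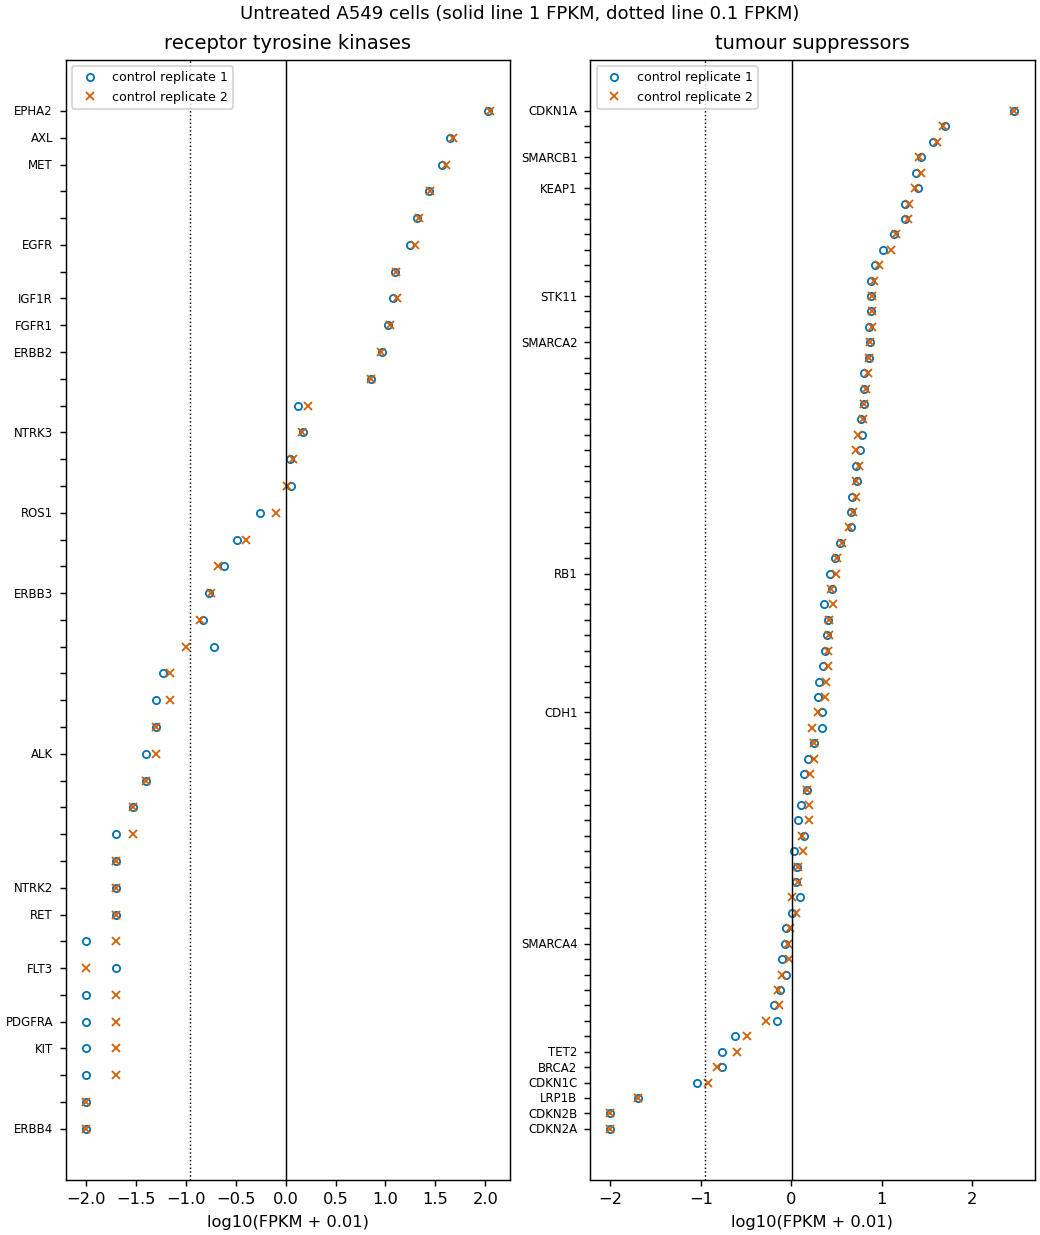
log10(FPKM + 0.01) of 39 receptor tyrosine kinases (left) and 67 tumour suppressor genes (right) in control replicate 1 (circles) and control replicate 2 (crosses), sorted by mean, with gene names for those described in the text. Of the kinases 15 lie right of 1 FPKM, led by EPHA2, 6 lie between the lines and 18 lie left of 0.1 FPKM, while 53 of 67 suppressors lie right of 1 FPKM and CDKN2A and CDKN2B sit at the left edge, where genes listed at 0 are drawn.

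Downstream of the receptors, 19 of 20 genes of the RAS and MAPK cascade were expressed. Of the RAS GTPases, HRAS had 26.3 and 22.8 FPKM and NRAS had 7.04 and 7.17 FPKM, with no overlap of the ranges. BRAF straddled the threshold with 0.94 and 1.01 FPKM, while the related kinase ARAF averaged 27.1 ± 1.1 FPKM. Their exon lengths differ, at 23432 bases for BRAF and 3535 for ARAF, and the gap was smaller in fragments. BRAF held about 453 and 570 fragments, and ARAF held about 2023 and 2238. MAP2K1 and MAP2K2, the MEK kinases, had overlapping ranges, at 22.1 and 21.5 FPKM and at 21.5 and 20.6 FPKM. In the PI3K, AKT and MTOR list 13 of 16 were expressed. PIK3CA, the alpha catalytic subunit, had 1.15 and 1.24 FPKM, and the kinases AKT1 and AKT2 averaged 10.5 ± 0.0707 and 11.3 ± 0.283 FPKM. PIK3CG, the leukocyte subunit, was listed at 0, PIK3CD had 0.97 and 0.94 FPKM, and PIK3R2 had 0.10 and 0.03 FPKM with 87.2% of its exon bases shared with another gene.

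Nuclear and cell cycle oncogenes were expressed in 24 of 40 cases and absent in 8. MYC had 42.1 and 42.5 FPKM, whereas its relatives MYCN and MYCL were listed at 0 and at 0.08 and 0.04 FPKM. JUN, of the AP-1 complex, had 91.1 and 97.2 FPKM, and FOSL1, a partner of JUN, had 26.9 and 26.0 FPKM, while FOS had 0.15 and 0.19 FPKM. CCND1, the cyclin that drives entry into the cell cycle, had 87.8 and 89.4 FPKM and its relative CCND2 had 0.01 and 0.03 FPKM. BCL2L1 and MCL1, which restrain apoptosis, averaged 47.2 ± 3.03 and 36 ± 0.566 FPKM, and BCL2, with the same role, had 0.19 and 0.20 FPKM. Of the exon bases of BCL2L1, 43% overlap another gene. TERT, the catalytic subunit of telomerase, had 0.08 and 0.04 FPKM, about 8 and 4 fragments. It was counted as absent by the 0.1 FPKM rule, although some of its RNA was sequenced.

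Of 67 tumour suppressor genes 53 were expressed and 3 were absent. CDKN2A and CDKN2B, which encode inhibitors of CDK4 and CDK6, were listed at 0 in both libraries, and LRP1B had 0.01 FPKM in both. CDKN1A, the cyclin-dependent kinase inhibitor p21, was the highest at 293 and 287 FPKM. STK11, an upstream kinase of AMPK, had 7.60 and 7.71 FPKM, above the median suppressor at 2.58 FPKM, and KEAP1 was higher still. RB1, which restrains entry into the cell cycle, had 2.68 and 3.08 FPKM. BRCA2 at 0.16 and 0.14 FPKM, TET2 at 0.16 and 0.24 FPKM and CDKN1C at 0.08 and 0.11 FPKM lay low without meeting the rule for absence.

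The genes next to CDKN2A on chromosome 9 were then read in their RefSeq order, and 4 of the 14 listed for this locus were expressed. IFNE, an epithelial interferon, had 3.93 and 4.17 FPKM. MTAP, the enzyme that salvages methylthioadenosine and lies beside CDKN2A, had 0.05 and 0.09 FPKM. After CDKN2A and CDKN2B came DMRTA1 at 0.51 and 0.59 FPKM and the neural gene ELAVL2 at 0.01 and 0.02 FPKM. Values at or near 0 thus ran from MTAP through CDKN2B, and FOCAD at 5.60 and 5.96 FPKM, MLLT3 at 3.02 and 2.96 FPKM and KLHL9 at 6.63 and 7.41 FPKM stood further out on the side of the interferon genes. CDKN2B-AS1, the antisense RNA of the locus, was listed at 0. The interferon alpha genes between FOCAD and KLHL9 were all listed at 0 too, and between KLHL9 and MTAP IFNA1 had 0.17 and 0.76 FPKM. These genes are induced by infection and their sequences are close to each other.

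STK11 partners and targets were expressed in 15 of 18 cases. CAB39, the scaffold that holds the STK11 complex, had 8.97 and 9.45 FPKM, PRKAA1, a catalytic subunit of AMPK, had 6.46 and 6.80 FPKM, and SIK1, a kinase that STK11 activates and that cAMP signalling induces, had 89.5 and 96.9 FPKM. PRKAA2, the other catalytic AMPK subunit, had 0.68 and 0.66 FPKM, and NR4A2 had 0.20 and 0.16 FPKM. Of 22 SWI/SNF chromatin remodelling subunits 20 were expressed. SMARCA4, an ATPase of the complex, was under the threshold at 0.84 and 0.92 FPKM, while SMARCA2, the alternative ATPase, had 7.38 and 7.48 FPKM, and ACTL6B, the subunit of neurons, had 0.00 and 0.02 FPKM. SMARCB1, a core subunit, averaged 26.8 ± 1.05 FPKM.

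Genes of the cell cycle gave 16 of 24 expressed. PCNA, the sliding clamp of DNA replication, had 144 and 146 FPKM, and the replication helicase genes MCM3 and MCM7 had 14.8 and 14.9 FPKM and 12.2 and 12.4 FPKM. The 8 that were not expressed were MKI67, a marker of cycling cells, at 0.19 and 0.23 FPKM, AURKB at 0.48 and 0.45 FPKM, BUB1 at 0.58 and 0.46 FPKM, BIRC5 at 0.64 and 0.58 FPKM, PLK1 at 0.64 and 0.63 FPKM, CCNA2 at 0.64 FPKM in both libraries, CDK1 at 0.72 and 0.67 FPKM and UBE2C at 0.68 and 1.19 FPKM. None of the 24 was absent.

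On the cell surface 22 of 37 genes were expressed. CD44, the hyaluronan receptor, had 163 and 171 FPKM, and CD59, CD55 and CD46, which restrain complement, averaged 138.4 ± 5.94, 55.4 ± 1.9 and 42 ± 1.07 FPKM. CD276, a checkpoint ligand, had 44.8 and 44.3 FPKM, whereas CD274, the PD-1 ligand, had 0.57 and 0.52 FPKM. B2M, the shared light chain of class I molecules, had 229 and 237 FPKM, and the class II genes HLA-DRA and CD74 and their activator CIITA had at most 0.08 FPKM in either library. FOLR1 and MUC16, antigens of some carcinomas, were listed at 0. With 43830 exon bases, MUC16 could hold several fragments at that value.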

How the data were processed

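RNA-seq libraries of control A549 cells were used, and the GMI libraries were not. The authors deposited FPKM values with 2 decimals for 57905 genes, 1 file per library. The submitters' processing notes name the build GRCh37 and the tools HTSeq 0.6.1, HISAT2 2.0.1, cutadapt 1.9.1 and bcl2fastq 2.17.1.14. What annotation release, strand setting and gene lengths they used is not given in the sources used here. Groups and replicate numbers came from the labels.

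Tables were made with pandas 2.3.3 and numpy 2.4.6 under Python 3.11.15, and biopython 1.88 compared sequences. GENCODE 29 (52338 identifiers matched) gave gene types, lengths and overlaps. It is on another build, so no coordinates of the files are printed, and promoter windows came from RefSeq on GRCh38.p14. Library denominators were found as the values that make FPKM of genes up to 200 nt and under 20 FPKM whole fragment numbers, within 0.006 FPKM; 96.1% and 95.8% of 336 and 357 values were whole, against 2.82% and 3.21% by chance. The procedure was tested on simulated data. Fragment numbers are approximate, since GENCODE 29 lengths stand in for the authors' lengths. Over 11830 genes, chi-square per degree of freedom between the libraries was 4.86, above sampling noise, so they were not treated as 1 library deposited in duplicate; this does not show separate cultures. Pearson's r across genes was 0.996 on log2(FPKM + 1).

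No test was run, because only 1 group was described. The 42 gene lists had 997 entries, 6 of them without a match; 926 different genes were matched and 552 were expressed. The members and lists were chosen with earlier results of these data known. Named genes were the 30 with the highest mean FPKM, members of the lineage, oncogene, suppressor and surface lists, the 6 highest and every unexpressed member of the other lists, the 10 genes of at least 10 FPKM that differed most between libraries, and 3 on either side of the threshold; some of these are not reported here, and others are said to be chosen after their values were seen. Alternatives were thresholds of 0.5, 2 and 5 FPKM, the mean in place of both libraries, each library alone, a TPM scale, protein-coding genes only, sums without mitochondrial or short genes, other pseudocounts, and other limits for absence.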

Additional observations from a re-analysis of the deposited data

How the results depend on the processing

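The number of expressed genes changed by over 1.5 times under 1 alternative, a threshold of 5 FPKM, which left 5933 genes; it was 12722 at 0.5 FPKM, 9022 at 2 FPKM, 11345 with the mean in place of both libraries, and 13734 after scaling to TPM, and with each library left out it ranged from 11301 to 11472. Expressed list members (552) ranged from 415 to 619 over the planned settings, and from 556 to 562 with a library left out. On the TPM scale 6 of 42 lists changed by over 1.5 times: alveolar type 1 to 5 expressed, basal and squamous to 5, neuroendocrine to 5, neural and melanocyte to 4, fibroblast and muscle to 2, and pluripotency and germ cell to 2. At 5 FPKM 17 lists changed so, at 0.5 FPKM 3 and at 2 FPKM 3; without control replicate 1 the absent genes of the PI3K, AKT and MTOR list numbered 2 in place of 1. Shares of the top 10, 100 and 1000 genes (18.6%, 44.0% and 73.2%) were 14.8%, 37.2% and 69.2% without mitochondrial genes, 18.9%, 43.6% and 73.0% without genes of 200 nt or less, and 18.7%, 44.4% and 73.9% with only expressed genes in the sum. With a library left out they ranged from 18.6% to 18.6%, 43.7% to 44.3% and 72.8% to 73.6%. The median absolute log2 ratio between the libraries, 0.0762 on log2(FPKM + 1), was 0.0893 with a pseudocount of 0.1, 0.0913 with none, 0.0745 with the median ratio set to 0, and 0.0 with no filter, where most genes are at 0 in both. Absent lineage, oncogene and suppressor genes numbered 179 of 473, but 85 when only genes listed at 0 counted, 146 under 0.05 FPKM, 237 under 0.5 FPKM, and 183 to 191 with a library left out. Promoter features held with a library left out: the median CpG ratio at 10 to 100 FPKM was 0.864 in both cases, TATAAA at 1 to 10 FPKM 0.997% to 1.07%, and TGACNNNGC in expressed genes 15.7%. No paired analysis was possible because only 1 group was described.

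Depth limits the low end: under about 0.073 FPKM a 2 kb gene rests on 3 fragments or fewer. Overlapping genes, near-identical copies and the 2 libraries, not stated to be separate cultures, limit single levels.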

Other observations

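Among nuclear hormone receptors 16 of 25 were expressed. NR1H2, a liver X receptor that senses oxysterols, was the highest at 49.3 and 46.4 FPKM, followed by the estrogen-related receptor ESRRA at 27.7 and 27.9 FPKM. PPARG, a receptor of fatty acids, had 18.8 and 18.7 FPKM, and NR3C1, the glucocorticoid receptor, had 17.7 and 19.6 FPKM. NR0B1, an orphan receptor without a DNA-binding domain, averaged 18.5 ± 0.707 FPKM. The estrogen receptor gene ESR1 was listed at 0, and the progesterone receptor gene PGR had 0.01 FPKM in both libraries.

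Of 26 respiratory virus entry factors 16 were expressed. TMPRSS2, a surface protease that activates coronavirus spike and influenza haemagglutinin, had 0.00 and 0.03 FPKM. The proteases that act elsewhere in the cell were expressed, with CTSL at 110 and 108 FPKM and FURIN at 54.3 and 55.5 FPKM. ICAM1, the receptor of most rhinoviruses, had 3.18 and 2.67 FPKM. DPP4, the receptor of MERS coronavirus, had 0.16 and 0.30 FPKM.

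Long non-coding RNAs of a list gave 16 of 25 expressed. ZFAS1 and GAS5, which host small nucleolar RNAs, averaged 192.3 ± 6.36 and 120.9 ± 4.93 FPKM, and 46.9% of the exon bases of ZFAS1 overlap another gene. MALAT1 and NEAT1, nuclear RNAs, had 35.7 and 43.2 FPKM and 45.7 and 52.5 FPKM. H19 had 0.10 and 0.06 FPKM and HOTAIR had 0.17 and 0.05 FPKM.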
